A study of Mus musculus with 2 samples.

Results

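The TGF-β receptors and Smads were followed in long-term hematopoietic stem cells (LT-HSCs) of aged mice, through the ligand Tgfb1, the receptors Tgfbr1, Tgfbr2 and Tgfbr3, the signal carriers Smad2, Smad3 and Smad4 and the inhibitors Smad6 and Smad7. Members were all non-control probes that the array design names for one of these 9 genes. They came to 16 of 55681 distinct probes, and to 9 of 22555 named genes. Bone marrow cells of 2-year-old C57BL/6J mice were sorted and hybridized to Agilent 1-color arrays, with 1 array for wild-type LT-HSCs and 1 for p38KO LT-HSCs. The p38KO mice carried CAG-CreERT2 and floxed p38α (Mapk14) alleles, and received tamoxifen (TAM) at 50–60 weeks of age, 1 year before analysis. The methods describe the controls as age-matched and also injected with TAM, with floxed p38α alleles but without CAG-CreERT2. The groups therefore differed in the presence of Cre as well. CAG is a ubiquitous promoter, so deletion was not limited to blood cells, and the number of mice behind each array is not given in the sources used here. Cells are labelled CD150+CD48-Flt3-CD34- LSK (lineage-negative, Sca-1+, c-Kit+), and the methods add CD41-, whereas the design text names only CD34 and Flt3 beside LSK. With 1 array per genotype, no p-value, no spread between mice and no replicate check could be given, and every difference below compares 2 arrays.

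TGF-β is made as a latent complex and acts after its release. It binds a type II receptor, Tgfbr2, which recruits and phosphorylates the type I receptor Tgfbr1, with Tgfbr3 (betaglycan) as a co-receptor that presents the ligand. Tgfbr1 then phosphorylates Smad2 and Smad3, which join Smad4 and enter the nucleus, while Smad6 and Smad7 are induced inhibitors that close the loop. A parallel branch runs through the kinase TAK1 (Map3k7) to p38. In bone marrow, TGF-β is known for holding hematopoietic stem cells in quiescence.

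Expression is given as log2 of the scanner's processed signal minus the 75th percentile of that array. Errors beside single probes are those of the scanner software's error model for 1 spot, averaged over the spots of a repeated probe. They contain no variation between mice. Total signal is not a read depth here, and the number of arrays limits the precision. Signals well above background were found for 67.9% of probes on the wild-type array and 69.0% on the p38KO array, whose 75th percentiles were 7.16 and 6.85 on the log2 scale before centering. The targeted gene did not separate the arrays. Mapk14 gave log2 signals of 2.34 (wild-type) and 2.31 (p38KO) at its brighter probe, a difference of −0.04 ± 0.20, and −0.05 ± 0.20 at the second probe. The deleted exons are not given in the sources used here, so it is unknown whether either probe lies in them, and the second array is therefore called the array labelled p38KO. All directions rest on that label.

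The sorted cells carried their stem cell label on both arrays, and mature lineage genes were also seen. All 12 listed genes of HSC identity were well above background on both arrays, but 11 of 12 were lower on the array labelled p38KO, with a median log2 difference of −0.64. Over all 15646 genes above background on both arrays, 8322 were lower and 7324 higher, and the median was −0.04. Of the listed granulocyte and monocyte genes, 9 of 10 were well above background on both arrays, and the median of these was 1.18. On the array labelled p38KO, 7 of them were higher and 2 lower, Elane (−1.41) and Lyz2 (−0.96). The B and plasma cell genes were well above background on both arrays for 6 of 8, and these 6 were all higher, with a median of 0.59. Over the genes above background on both arrays, T and NK cell genes had a median of 0.62 (5 higher, 2 lower, −4.43 to 1.15). Erythroid genes had a median of 0.27 (5 higher, 2 lower, −1.10 to 1.06). Medians were −0.003 for megakaryocyte and platelet genes (3 higher, 4 lower) and −0.11 for endothelial and stromal genes (2 higher, 4 lower). In bulk RNA, fewer cells of a type and less RNA per cell cannot be told apart, and the part of these shifts in the results below was not tested.

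Tgfb1 and Tgfbr2 each have 1 probe inside the coding sequence, and these probes are shown because they fix which part of the transcript the reading comes from. The Tgfb1 probe lies at chr7:26489877-26489936 (mm9, plus strand) and reads a stretch near the end of the mature growth factor, which all processed TGF-β1 carries. The first Tgfbr2 probe lies at chr9:115999496-115999555 (mm9, minus strand) and covers the last coding bases of the receptor, with capitals marking the stop codon.
Tgfb1: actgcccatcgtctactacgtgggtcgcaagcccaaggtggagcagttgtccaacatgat
Tgfbr2 probe 1: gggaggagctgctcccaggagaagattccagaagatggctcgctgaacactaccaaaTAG

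The members were measured at similar levels on both arrays. Signals were well above background on both arrays for 13 of the 16 probes, covering 8 of the 9 genes, on 1 array for Smad6, and on neither for 2 probes of Tgfbr1. None of the 14 probes seen on at least 1 array was 2-fold lower on the array labelled p38KO (0, where 7.52% of all such probes were) and none was 2-fold higher (0, against 6.32%). Log2 differences of the 13 probes ran from −0.61 to 0.15 with a median of −0.20, beside a median of −0.0045 over all 35798 probes measured on both arrays. In direction, 10 of the 13 were lower on the array labelled p38KO (76.9%, against 50.3% of all probes). The 13 values stayed near the middle of the array, 10 lying between the quartiles of all probes (−0.35 and 0.37) and 3 below the lower one. These 3, one probe each of Tgfbr1, Smad2 and Smad4, were also the ones whose difference was larger than 2 scanner errors, or 23.1% of the 13, where 20.1% of all probes were lower by that rule. No member probe was higher by that rule (0, against 20.9% of all probes).

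**Figure D1:**
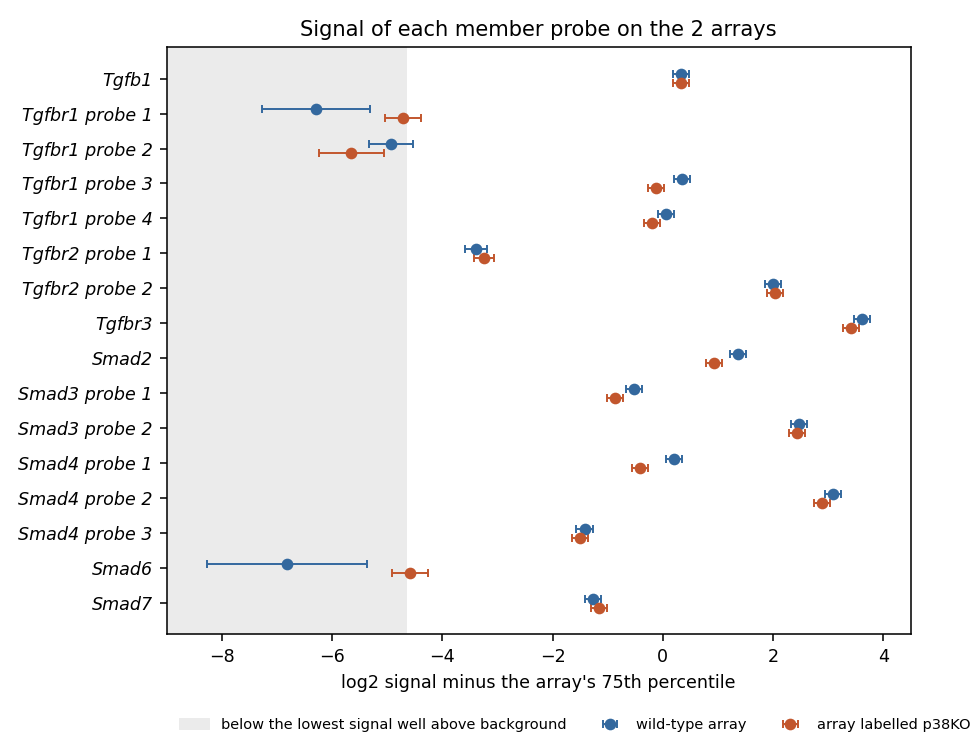
Log2 signal of the 16 member probes relative to each array's 75th percentile (x axis) on the wild-type array (blue) and the array labelled p38KO (orange), with bars for the scanner software's error and grey for signals under the lowest one well above background on the wild-type array. Tgfbr1 probes 1 and 2 and Smad6 lie in or beside the grey area, and the points of the 2 arrays lie close together for the other 13 probes.

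The ligand Tgfb1 was the same on both arrays within the scatter of its spots. It was printed as 10 spots per array, with log2 signals of 0.34 ± 0.06 (SD over 10 spots, range 0.24 to 0.41) on the wild-type array and 0.32 ± 0.07 (range 0.23 to 0.42) on the array labelled p38KO. The spot ranges overlapped almost fully, 6 of 10 paired spots were lower on the array labelled p38KO, and the difference of means was −0.01. Tgfb3, the only other TGF-β ligand above background, was lower on the array labelled p38KO. Its 10 spots read −1.55 ± 0.11 (range −1.73 to −1.35) on the wild-type array and −2.15 ± 0.22 (range −2.38 to −1.83) on the array labelled p38KO. All 10 spots were lower, the ranges did not overlap, and the difference was −0.60 ± 0.22 (scanner error), or 1.52-fold. It was larger than 2 scanner errors, and 20.1% of all probes were lower by that rule. How often the spots of other repeated probes separate in this way was not counted. Spots are repeats on 1 array, not mice, and with normexp background correction the Tgfb3 difference was −0.14. Tgfb2 was well above background on neither array.

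**Figure D2:**
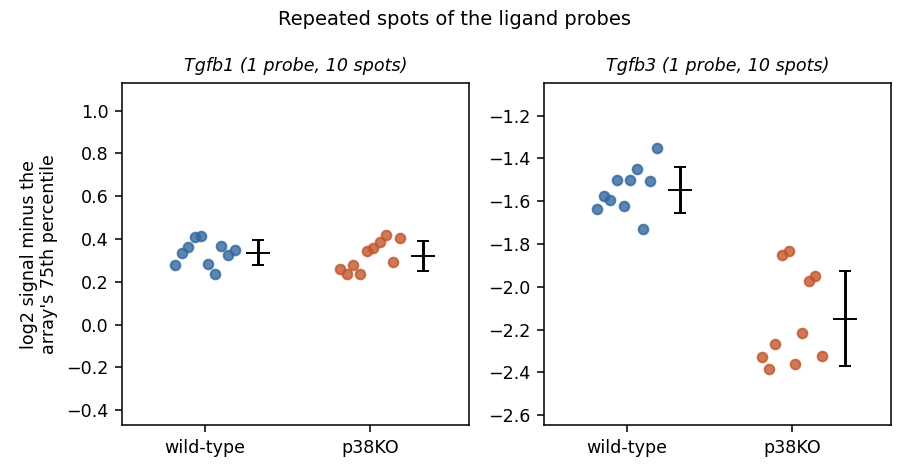
Log2 signal (y axis, the 75th percentile of the array set to 0) for the 10 spots of the Tgfb1 probe and of the Tgfb3 probe on each array, with the mean and SD over spots in black. Tgfb1 overlaps around 0.34 and 0.32, and the Tgfb3 spots of the 2 arrays are separate, with means of −1.55 and −2.15.

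Tgfbr1, the type I kinase that starts Smad2 and Smad3 phosphorylation, was lower on the array labelled p38KO at both of its measurable probes. Probe 3 read 0.34 on the wild-type array and −0.12 on the array labelled p38KO, a difference of −0.46 ± 0.21, or 1.37-fold. Probe 4, which lies 2790 bases further along the gene, read 0.05 and −0.20, a difference of −0.25 ± 0.20, within 2 errors. The other 2 probes, designed to further Ensembl transcripts upstream, had processed intensities of 1.84 ± 1.24 and 4.39 ± 1.02 at probe 1 and of 4.72 ± 1.30 and 2.30 ± 0.94 at probe 2, in the order wild-type and p38KO. None of these was well above background, and no fold is given for them.

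Tgfbr2, the ligand-binding type II receptor, differed by less than the scanner error. Its coding-end probe was dim at −3.39 (wild-type) and −3.24 (p38KO), a difference of 0.15 ± 0.27. Probe 2, 2341 bases downstream, read 2.00 and 2.03, a difference of 0.03 ± 0.20. Both differences were smaller than 1 scanner error, and that of probe 2 was −0.003 with normexp. Tgfbr3, the co-receptor betaglycan, read 3.62 and 3.42, a difference of −0.20 ± 0.20.

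Of the receptor-activated Smads, Smad2 was lower by more than 2 scanner errors and Smad3 was not. Smad2 had a single probe, at 1.36 on the wild-type array and 0.92 on the array labelled p38KO, a difference of −0.43 ± 0.20, or 1.35-fold. The Smad3 probes did not give the same size. Probe 1 read −0.53 and −0.87, a difference of −0.34 ± 0.21, whereas probe 2, 2918 bases downstream and brighter, read 2.48 and 2.44, a difference of −0.04 ± 0.20. The difference of Smad3 probe 1 was −0.17 with normexp, and that of probe 2 turned to 0.016 with quantile and 0.038 with loess normalization.

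Smad4, the partner shared by the TGF-β and BMP branches, was lower at all 3 of its probes, with sizes that ranged over most of the members' span. Probe 1 read 0.20 on the wild-type array and −0.41 on the array labelled p38KO, a difference of −0.61 ± 0.21, or 1.52-fold. The brightest, probe 2, read 3.09 and 2.88, a difference of −0.20 ± 0.20. Probe 3 read −1.42 and −1.50, a difference of −0.08 ± 0.21. These probes lie 998 and 844 bases apart along the gene. With normexp, probe 1 gave −0.40 and probe 3 turned to 0.08, so the direction at all 3 probes did not hold under that background correction.

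The inhibitory Smads differed little where they could be measured. Smad7, which blocks Tgfbr1 and recruits ubiquitin ligases to it, read −1.26 and −1.16, a difference of 0.11 ± 0.21. Smad6, which acts mainly on the BMP branch, had a processed intensity of 1.27 ± 1.28 on the wild-type array, not well above background there, and reached 4.79 ± 1.07 on the array labelled p38KO. Set against the lowest signal counted as above background on the wild-type array, its signal on the array labelled p38KO was at least 1.05-fold higher. Without that floor its log2 difference would be 2.23, a value that rests on a spot no brighter than its own error.

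**Figure D3:**
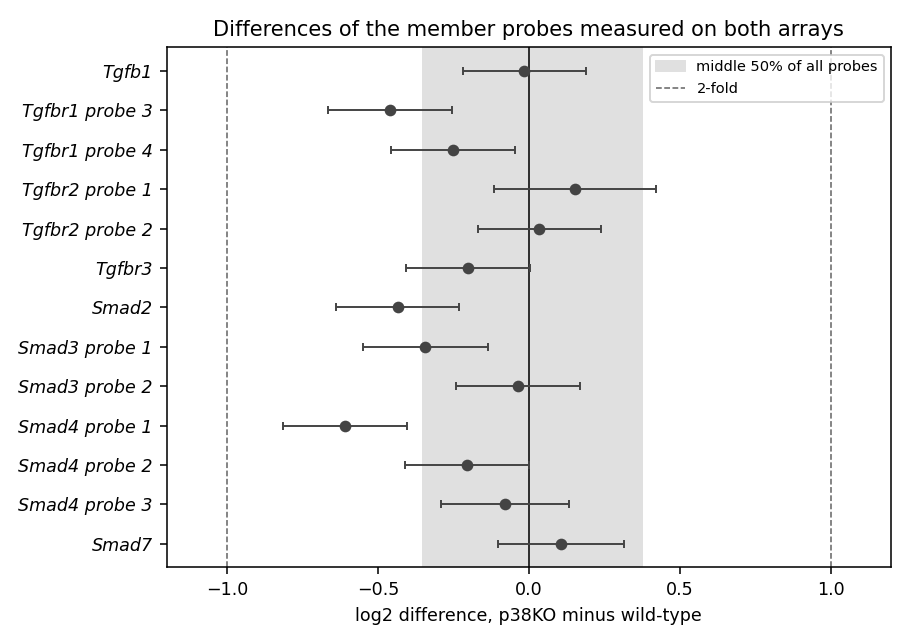
Log2 difference, p38KO minus wild-type (x axis), for the 13 member probes well above background on both arrays, with bars for the scanner error of the difference, grey for the quartiles of all 35798 probes and dashed lines at 2-fold. Values run from −0.61 (Smad4 probe 1) to 0.15 (Tgfbr2 probe 1), and the dashed lines are not reached.

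Taking 1 probe per gene, the brightest, 6 of the 8 members above background on both arrays were lower and 2 higher, with a median of −0.12. Of all 15646 such genes, 8322 were lower and 7324 higher, with a median of −0.04. With Smad6 at its bound, the median of the 9 was −0.04. When all probes of a gene were averaged instead, the median of the 9 was −0.19. Of the members with several probes above background, the sign at every probe held under all alternatives for Tgfbr1, negative at both, but not for Tgfbr2, Smad3 and Smad4, each of which had 1 probe that changed sign.

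**Figure D4:**
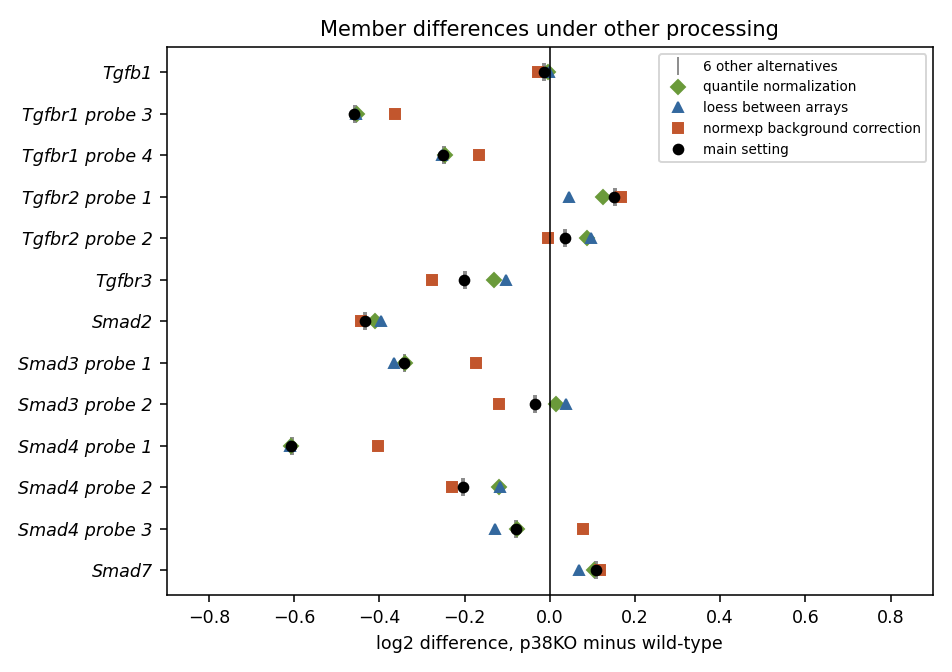
Log2 difference, p38KO minus wild-type (x axis), of the same 13 probes under the main setting (black) and 9 alternatives. Most points coincide with the main value, in part because several alternatives cannot move single probes. The largest move is 0.21, and normexp background correction (orange squares) accounts for the widest shifts.

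The rest of the superfamily pathway was read from 7 lists, with 93 genes, and 79 of them were well above background on 1 or both arrays. Among the 74 genes above background on both arrays, the array labelled p38KO had 4 at least 2-fold lower (5.41%, against 5.02% of all 15646 such genes) and 2 at least 2-fold higher (2.70%, against 3.18%), and their median log2 difference was −0.12. Genes above background on 1 array entered through the array where they were high, so their direction was set by the filter. With those the counts were 5 lower (6.33%, against 6.71% of all 17194 genes) and 6 higher (7.59%, against 4.11%). Only 1 of these 11 genes, Cdkn2b, was also past 2-fold with normexp, where the shares of all genes were 0.727% lower and 0.285% higher. Directions and medians of the lists below are those of genes above background on both arrays. Of all 15646 such genes, 8322 were lower and 7324 higher, with a median of −0.04.

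Genes of TGF-β ligands and their activation were above background on both arrays for 9 of 14, 6 lower and 3 higher, with a median of −0.25. Itgav, the αv integrin subunit that helps release latent TGF-β, read −0.77 on the wild-type array and −1.86 on the array labelled p38KO, a difference of −1.08 ± 0.21, but its dimmer probe gave 0.15. Lrrc32 (GARP), which docks latent TGF-β at the cell surface, was above background only on the array labelled p38KO. Against the floor of the wild-type array it was 2.06-fold higher there, a log2 difference of 1.04 with a scanner error of 0.78. With normexp its log2 difference was 0.35. The latency protein gene Ltbp3 differed by −0.38 (−0.15 at its other probe) and Ltbp1 by 0.27 (0.08 at the other). Ltbp4 differed by 0.09 at its brightest probe, and its dimmer probes gave 0.47 and 0.98. Thbs1, an activator of latent TGF-β, differed by 0.92, and by 0.36 with normexp. Beside Tgfb2, the genes Itgb6, Itgb8 and Fbn1 were not well above background.

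BMP and activin ligand genes were measured on both arrays for 9 of 12, 4 lower and 5 higher, with a median of 0.03. The inhibin subunits differed in opposite directions. Inhba, the activin A subunit, read 0.05 and −1.60, a difference of −1.65 ± 0.21 or 3.14-fold lower on the array labelled p38KO, while Inha read −3.29 and −2.08, or 2.31-fold higher. Inhbb differed by −0.26, Gdf11 by −0.18, Gdf3 by 0.78 and Nodal by 0.76. With normexp the log2 differences were −0.97 for Inhba, 0.48 for Inha, −0.15 for Inhbb, −0.0006 for Gdf11, 0.57 for Gdf3 and 0.34 for Nodal. Bmp2, Bmp5 and Bmp7 were not well above background.

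Among the other receptors of the superfamily, 8 of 11 were measured on both arrays, 4 lower and 4 higher, with a median of −0.06. With Amhr2 the median was 0.002, and averaging each gene's probes it was 0.36. Bmpr1a, a type I BMP receptor, read 0.26 and −1.01, a difference of −1.27 ± 0.21 or 2.41-fold lower on the array labelled p38KO. The activin type II receptors were higher there, Acvr2a by 0.75 and Acvr2b by 0.81. Acvrl1 (ALK1) differed by 0.36 and the co-receptor endoglin, Eng, by −0.22. Acvr1b, the activin type I receptor, differed by −0.23, with −0.86 at its other probe. Amhr2 was above background only on the array labelled p38KO. Against the floor of the wild-type array it was 2.01-fold higher, a log2 difference of 1.01 with a scanner error of 0.57, and with normexp 0.34. Acvr1c and Bmpr1b were above background on neither array. The BMP Smads followed Smad2 in sign at every measured probe, with −0.31 for Smad1 at its brightest probe (−0.47 and −0.50 at the others) and −0.11 for Smad5 (−0.34 at the other), while Smad9 was not well above background.

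Regulators of receptors and Smads were measured on both arrays for 18 of 22, 10 lower and 8 higher, with a median of −0.22. Both Smurf genes, which encode ubiquitin ligases for receptors and Smads, were lower on the array labelled p38KO. Smurf1 read 0.29 and −1.06, a difference of −1.36 ± 0.21, and Smurf2 read 1.99 and 1.33, a difference of −0.66 ± 0.20. Tgif2, a Smad co-repressor, differed by −0.94 at its brightest probe, but its other probes gave −0.58 and 0.21. Zfyve9 (SARA), which anchors Smad2 and Smad3 at the receptor, and Ldlrad4, which restrains Smad activation, were above background only on the array labelled p38KO. Zfyve9 was 6.06-fold higher there, against a dim wild-type reading of −4.31, and Ldlrad4 at least 7.85-fold higher. With normexp their log2 differences were 0.71 and 0.76. Smaller positive differences were those of the ubiquitin ligases Trim33 (0.50) and Nedd4l (0.27) and of the coactivator Ep300 (0.39). The inhibitors Pmepa1 and Bambi were not well above background.

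Target genes of TGF-β and BMP were measured on both arrays for 20 of 23, 13 lower and 7 higher, with a median of −0.23, and their 4 cyclin-dependent kinase inhibitors did not share a direction. Cdkn2b (p15) read 0.33 on the wild-type array, whereas its signal on the array labelled p38KO was not well above background. Against the lowest signal above background there, it was at least 34.4-fold lower, but with normexp its log2 difference was −1.75. The second Cdkn2b probe was dim on both arrays. Cdkn1a (p21) read −3.68 and −1.26, a difference of 2.42 ± 0.27 or 5.35-fold higher, whereas its other probes gave 0.09 and 0.74. The other inhibitors, Cdkn1b (p27) and Cdkn1c (p57), differed by −0.24 and −0.08, and were picked after their values were seen to complete the set. Other lower values were those of Bhlhe40 (−0.80, with normexp −0.24), Junb (−0.77, with normexp −0.26) and the secreted matrix protein gene Tgfbi (−0.71, with normexp −0.64). Other higher values were those of the matrix genes Fn1 (0.90, with normexp 0.35) and Col1a2 (0.64, with normexp 0.42). Snai1 and Col1a1 were not well above background. Over target genes above background on 1 or both arrays, the median was −0.23, and with normexp it was −0.02.

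All 8 genes of the TAK1 arm were measured on both arrays, 5 lower and 3 higher, with a median of −0.03 and none past 2-fold (0 in either direction). The adaptor Tab2 read 1.21 and 0.69, a difference of −0.52 ± 0.20, and the p38 kinase Map2k3 differed by −0.39 and Tab1 by −0.08. Map3k7, which encodes TAK1, differed by 0.34 at its brightest probe and by 0.03 and −1.42 at the others, so its direction depended on the probe. Tab3 differed by 0.22 and Map2k6, the other p38 kinase, by 0.09.

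**Figure D5:**
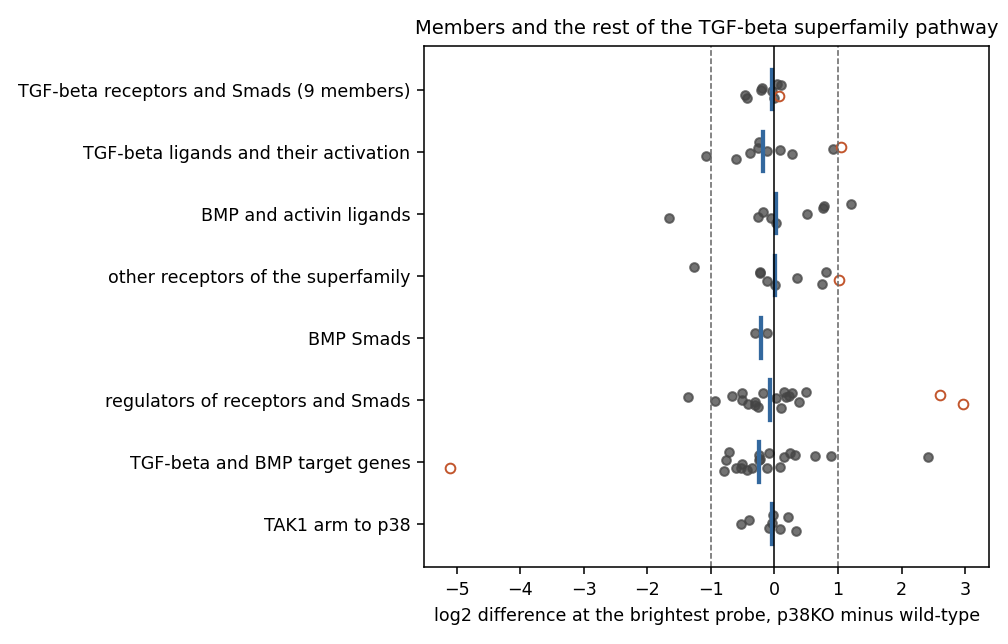
Log2 difference at the brightest probe, p38KO minus wild-type (x axis), for every measured gene of the members and of the 7 pathway lists. Filled points are genes above background on both arrays, and open points are those above background on 1 array. Blue bars are medians over both kinds, and dashed lines mark 2-fold. The 9 members lie between −0.46 and 0.11, while the open points reach −5.11 (Cdkn2b) and 2.97 (Ldlrad4).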

How the data were processed

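LT-HSC RNA of 1 wild-type and 1 p38KO sample was hybridized to single-color (Cy3) arrays on the same slide. The work from RNA extraction to normalization was outsourced, and the labels name Agilent Feature Extraction 11.5.1.1. The deposited scanner files give processed intensity (gProcessedSignal, background-subtracted by that software) and its error. The authors also deposited normalized log2 values for 35795 probes, 13 of them member probes, with medians of −0.79 on both arrays. How these were centered is not stated, and they served only as an alternative.

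From 59305 non-control spots, spots flagged as outliers were dropped and repeated spots averaged, which left 55662 probes. Log2 intensity minus each array's 75th percentile was the main value. Probes had to be well above background on 1 array or both. Where 1 side was not, the array's lowest signal above background stood in for a lower value (−4.65 wild-type, −4.78 p38KO), so such differences are bounds. Gene names were those of the array design, and 31778 probes (57.1%) were named through the RefSeq gene table (GRCm38.p6, names only), with coordinates as in the files (mm9). Over 276 repeated probes the spot SD of a difference was 0.13. List genes were read at their brightest probe. Named were all member probes, Mapk14, and the 3 lowest and 3 highest genes per pathway list above background on both arrays. Genes above background on 1 array were named where their difference was past 2-fold. Members and lists were chosen with earlier results of these data known. The call at 2 scanner errors, counts over list genes above background on both arrays, and running the alternatives on single pathway genes, were chosen after seeing the data. Alternatives were quantile, median and loess (span 0.3) normalization, normexp (offset 50), the authors' values, both arrays required, no filter, no floor, flagged spots kept and the mean of a gene's probes. Python 3.11.15, R 4.3.3 and limma 3.58.1 were used, and the scripts were tested on simulated data.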

Additional observations from a re-analysis of the deposited data

How the results depend on the processing

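Among the members' 13 probes measured on both arrays, 10 kept their sign under all alternatives and none passed 0.61 in size. Of their 117 values under the alternatives, 114 stayed within 0.13 of the main value, the spot SD of a difference. Requiring both arrays, no filter and no floor could not change these values. Median normalization, the authors' values and kept flagged spots shifted all 13 alike, by far less than that SD. Only quantile, loess and normexp processing could move single probes. The 3 that moved, all with normexp, were Smad3 probe 1 (−0.17), Smad4 probe 1 (−0.40) and Smad4 probe 3 (0.08). Of the counts and medians, 99 of 107 stayed. The medians here are over genes above background on 1 or both arrays, with main values of −0.18 (ligands and activation), 0.03 (BMP and activin ligands), −0.23 (targets), −0.08 (regulators), −0.04 (members) and 0.002 (other receptors). With normexp the medians were −0.042 for ligands and activation, 0.17 for BMP and activin ligands and −0.018 for targets. Regulators had −0.22 with the authors' values and −0.22 when both arrays were required. Without a floor, 1 member probe (Smad6) was 2-fold higher. Averaging all probes of a gene gave medians of −0.19 for the members and 0.36 for the other receptors. Normexp adds a constant to every signal, which by construction shrinks differences of dim probes. It also replaces the scanner's background subtraction, and some bright probes became more negative with it, as Tgfbr3 did from −0.20 to −0.28. The share of the added constant in the moves was not tested. No replicate could be left out. No paired analysis was possible because each genotype had 1 array.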
